A study of Mus musculus with 11 samples.

Results

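Dbp, Tef, Hlf, Nr1d1, Nr1d2, Per1, Per2, Per3, Cry2 and Arntl are genes of the circadian clock, and their transcripts were measured in the rectal mucosa of 11 mice. These 10 genes, of 19944 named genes on the array, were selected on their mean levels in the 3 groups of these same arrays. Their levels and group differences are therefore given as a description with no test, and the difference between the sexes, which the choice did not use, is the comparison that was tested on them. Each gene had 1 transcript cluster, the set of probes that Affymetrix Mouse Gene 1.0 ST arrays place along a transcript, annotated with that gene's symbol alone.

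One array was made per mouse. In the α6ΔIEC-TAM mice, called mutant here, tamoxifen is given to delete Itga6, the gene of integrin α6, in intestinal epithelial cells. The mutant tamoxifen group held 4 mice, 3 female and 1 male. The control tamoxifen group held 3 mice labelled wild type, 1 female and 2 male. The mutant NaCl group held 4 mutant mice, 3 female and 1 male, that received NaCl without tamoxifen. Gavage began in mice aged 8 weeks and ran for 5 days, with tamoxifen at 10 mg per day in the tamoxifen groups only. The mucosa was taken 15 days after the first gavage, when the mice were 10 weeks old. Control and mutant tamoxifen mice thus share the drug, and both mutant groups share the genotype. Not given in the sources used here are the promoter that drives the recombinase, any allele that the wild-type mice carry, and the time of day at which the mice were killed. Each mouse gave 1 sampling, so no course over the day was measured.

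Values are log2 levels, in which a difference of 1 is a doubling, and array medians lay between 7.29 and 7.35. Markers of epithelium (Epcam, Cdh1, Vil1, Krt8, Krt20 and Cdx2) averaged 11.77 to 12.22 on every array. Itga6 itself read 11.75 to 11.93 in the arrays labelled mutant tamoxifen, 11.15 to 11.52 in control tamoxifen and 11.28 to 11.49 in mutant NaCl. It was thus higher, not lower, in the group labelled as deleted, by 0.42 ± 0.10 (SE, adjusted p = 0.00949) and 0.41 ± 0.08 (adjusted p = 0.0053, limma, Benjamini-Hochberg over all genes). The first call ended without mutant tamoxifen replicate 3 (adjusted p = 0.0614). Where its probes lie relative to the deleted part is not given in the sources used here, so this reading cannot check the labels, and group names below are those of the labels.

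The mammalian clock is a loop of transcription that feeds back on itself over about a day. BMAL1, the product of Arntl, pairs with CLOCK and binds E-boxes, from which it drives the Per and Cry genes, the Nr1d genes and Dbp, Tef and Hlf. PER and CRY proteins then inhibit BMAL1 and CLOCK, while the REV-ERB receptors encoded by Nr1d1 and Nr1d2 repress Arntl and Nfil3 through elements called ROREs. DBP, TEF and HLF carry the rhythm outward through D-boxes, where NFIL3 opposes them. In the intestine this clock is known to time cell division, nutrient uptake and barrier functions.

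Promoters were taken from RefSeq on the mouse build GRCm38.p6, 250 bases before to 50 after each start, to show which of these elements lie near the starts of the genes described. The table matched 9 of the 10 genes with 12 promoters. The motifs searched on both strands were the E-box CACGTG, the related E-prime box CACGTT, the D-box (TTATGTAA or TTACGTAA) and the core of the RORE (TAGGTCA or TGGGTCA). No match overlapped another. The stretches below show an E-box in Tef 127 bases before the start (chr15:81802423-81802672, plus strand), an E-prime box in Nr1d1 28 bases before it (chr11:98775378-98775627, minus strand), and a pair of D-boxes in Per3, 205 and 158 bases before it (chr4:151044666-151044915, minus strand). They also show the RORE core that begins 30 bases after the later of the Arntl starts (chr7:113207529-113207558, plus strand). Ciart, with E-boxes 116, 58 and 44 bases before its start (chr3:95882229-95882478, minus strand), and Nfil3, with a RORE core 12 bases before (chr13:52981040-52981289, minus strand), are shown because they had the largest decrease and the largest increase among the other clock loop genes below. All are written 5′ to 3′ along the gene's own strand, with the motif in capitals.
Tef: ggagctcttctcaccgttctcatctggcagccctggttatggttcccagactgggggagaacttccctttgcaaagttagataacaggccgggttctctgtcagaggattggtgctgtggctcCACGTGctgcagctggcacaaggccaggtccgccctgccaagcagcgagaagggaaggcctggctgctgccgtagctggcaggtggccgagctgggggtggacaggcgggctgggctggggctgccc
Nr1d1: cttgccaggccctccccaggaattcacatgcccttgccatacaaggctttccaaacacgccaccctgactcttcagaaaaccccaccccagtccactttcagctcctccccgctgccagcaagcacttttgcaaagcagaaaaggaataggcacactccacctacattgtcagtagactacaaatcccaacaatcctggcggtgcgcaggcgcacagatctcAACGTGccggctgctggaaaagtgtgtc
Per3: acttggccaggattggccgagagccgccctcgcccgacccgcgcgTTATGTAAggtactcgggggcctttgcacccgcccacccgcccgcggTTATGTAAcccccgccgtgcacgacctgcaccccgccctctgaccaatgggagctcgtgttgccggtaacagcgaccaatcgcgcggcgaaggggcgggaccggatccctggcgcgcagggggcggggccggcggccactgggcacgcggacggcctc
Arntl: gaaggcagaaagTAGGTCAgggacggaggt
Ciart: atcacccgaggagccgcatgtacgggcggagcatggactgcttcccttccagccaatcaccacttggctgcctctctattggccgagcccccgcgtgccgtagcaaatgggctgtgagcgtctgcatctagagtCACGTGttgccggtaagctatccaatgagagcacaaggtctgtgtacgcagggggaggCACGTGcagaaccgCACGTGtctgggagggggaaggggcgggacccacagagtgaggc
Nfil3: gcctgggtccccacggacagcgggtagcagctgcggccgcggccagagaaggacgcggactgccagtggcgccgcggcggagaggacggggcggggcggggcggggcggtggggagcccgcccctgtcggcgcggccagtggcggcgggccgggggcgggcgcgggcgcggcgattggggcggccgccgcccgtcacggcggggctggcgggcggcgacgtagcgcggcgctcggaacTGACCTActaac

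The E-box occurred in 3 of the 12 promoters, or 25%, against 7.15% of 32851 promoters in the table: both promoters of Tef and 1 of those of Per1. The E-prime box occurred in 16.7%, those of Nr1d1 and Cry2, against 4.68% of all. The D-box was in Per3 alone, 8.33% against 1.06%, and the RORE core in Arntl alone, 8.33% against 6.45%. No match was found in the windows of Dbp, Hlf and Nr1d2, which says only that these letters are not there. A match is a string of letters, not a measured binding site.

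Levels of 9 of the 10 genes were lowest in the mutant tamoxifen group, and Arntl was the exception. Every mutant tamoxifen array lay below all 7 other arrays for 6 of the 10, Dbp, Tef, Hlf, Nr1d1, Nr1d2 and Cry2, which 10.1% of all genes did. Since these contrasts chose the genes, nothing is read from that gap. Rectal mucosa is a mixture, and in bulk RNA fewer cells of a type and less RNA per cell cannot be told apart.

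**Figure D1:**
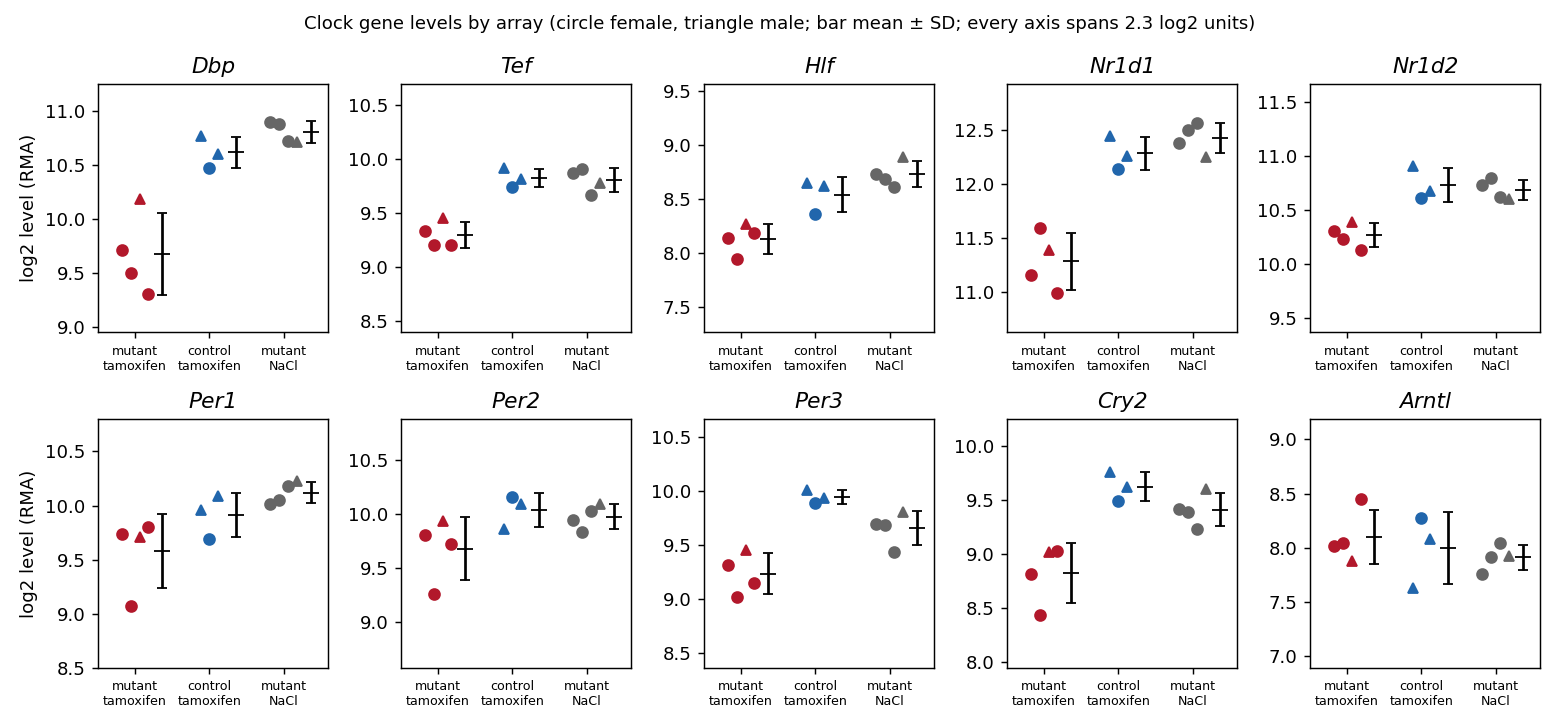
Log2 level (y axis) of the 10 clock genes on each of the 11 arrays, by group (x axis); circles are females, triangles are males, and the bars give the mean ± SD of 4, 3 and 4 arrays. The mutant tamoxifen arrays of Nr1d1 sit between 10.99 and 11.59, all below the lowest other array at 12.14, while those of Arntl span 7.88 to 8.45, among the other arrays.

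The output factors come first. Dbp, the albumin promoter D-box binding protein, read 9.71, 9.50, 10.19 and 9.31 on mutant tamoxifen replicates 1 to 4. It read 10.77, 10.48 and 10.61 on the control tamoxifen arrays and 10.90, 10.88, 10.72 and 10.71 on the mutant NaCl arrays. The arrays labelled mutant tamoxifen did not overlap with either other group, and the male, replicate 3, was the highest of its group. The means were 9.68 ± 0.38 (SD, n = 4), 10.62 ± 0.15 (n = 3) and 10.80 ± 0.10 (n = 4). The fitted difference, which allows for sex, was -0.83 ± 0.15 (SE) against control tamoxifen and -1.13 ± 0.13 against mutant NaCl, or 1.78-fold and 2.18-fold lower. Without mutant tamoxifen replicate 3 the first of these was -1.09.

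Tef, thyrotroph embryonic factor, read 9.33, 9.20, 9.45 and 9.20 in mutant tamoxifen, 9.91, 9.74 and 9.81 in control tamoxifen, and 9.87, 9.90, 9.66 and 9.77 in mutant NaCl. Its mutant tamoxifen arrays were close together, with an SD of 0.12, and both other groups averaged 9.82 and 9.80. The fitted differences were -0.48 ± 0.08 and -0.50 ± 0.07, a narrower gap than that of Dbp on the log2 scale. Hlf, hepatic leukemia factor, read 8.14, 7.94, 8.28 and 8.18 in mutant tamoxifen, 8.65, 8.36 and 8.62 in control tamoxifen, and 8.73, 8.68, 8.61 and 8.90 in mutant NaCl. Control tamoxifen replicate 2, the only female of that group, came closest, at 8.36 against the highest mutant tamoxifen array at 8.28. The fitted differences of Hlf were -0.31 ± 0.07 and -0.59 ± 0.06, and mutant NaCl lay 0.28 ± 0.07 above control tamoxifen.

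The REV-ERB receptors are nuclear receptors that bind heme and repress Arntl. Nr1d1, which encodes REV-ERBα, read 11.16, 11.59, 11.38 and 10.99 in mutant tamoxifen, 12.45, 12.14 and 12.26 in control tamoxifen, and 12.38, 12.50, 12.56 and 12.25 in mutant NaCl. Its lowest reference array lay above its highest mutant tamoxifen array, and replicate 2 was the highest of the mutant tamoxifen arrays for this gene alone among the 10. The fitted differences were -0.99 ± 0.14 and -1.14 ± 0.12, or 1.98-fold and 2.20-fold lower, the largest of the 10 genes in both comparisons. Nr1d2, which encodes REV-ERBβ, read 10.31, 10.23, 10.39 and 10.13 in mutant tamoxifen, 10.90, 10.61 and 10.67 in control tamoxifen, and 10.72, 10.79, 10.61 and 10.60 in mutant NaCl. Its fitted differences were -0.43 ± 0.09 and -0.42 ± 0.08. The reference groups averaged 10.73 and 10.68, apart by less than the SD of 0.15 in control tamoxifen.

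The period and cryptochrome genes encode the inhibitors of BMAL1 and CLOCK. Per1, which hormones also induce directly in many tissues, read 9.74, 9.07, 9.70 and 9.80 in mutant tamoxifen, 9.95, 9.70 and 10.09 in control tamoxifen, and 10.02, 10.06, 10.18 and 10.23 in mutant NaCl. Replicate 2 stood apart from its group, and the mutant and control tamoxifen groups overlapped. The fitted differences were -0.25 ± 0.16 against control tamoxifen and -0.54 ± 0.14 against mutant NaCl. Without mutant tamoxifen replicate 2 they were -0.12 and -0.38, and the first is then less than the SE of the full fit.

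Per2 read 9.80, 9.27, 9.93 and 9.72 in mutant tamoxifen, 9.87, 10.16 and 10.09 in control tamoxifen, and 9.94, 9.84, 10.03 and 10.10 in mutant NaCl. It overlapped with both other groups, and replicate 2 was again the lowest array. The fitted differences were -0.31 ± 0.15 and -0.30 ± 0.13, and they were -0.20 and -0.16 without that replicate. Without control tamoxifen replicate 2, the only female there, the first was -0.11. Among females alone the difference from control tamoxifen, where 1 female remains, was -0.56.

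Per3 read 9.31, 9.02, 9.45 and 9.15 in mutant tamoxifen, 10.01, 9.88 and 9.94 in control tamoxifen, and 9.69, 9.68, 9.43 and 9.81 in mutant NaCl. All of mutant tamoxifen lay below control tamoxifen, and its male replicate 3 just passed the lowest mutant NaCl array. Per3 was also the gene of the 10 for which every mutant NaCl array lay below every control tamoxifen array, by -0.21 ± 0.09 in the fit, as 5.32% of all genes did. Its differences for mutant tamoxifen were -0.63 ± 0.09 and -0.42 ± 0.08. Cry2 read 8.81, 8.44, 9.02 and 9.03 in mutant tamoxifen, 9.76, 9.49 and 9.62 in control tamoxifen, and 9.42, 9.39, 9.24 and 9.61 in mutant NaCl. Its fitted differences were -0.70 ± 0.12 and -0.59 ± 0.11, and its mutant tamoxifen arrays did not reach either other group.

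Arntl, the activator, read 8.01, 8.04, 7.88 and 8.45 in mutant tamoxifen, 7.63, 8.28 and 8.08 in control tamoxifen, and 7.76, 7.91, 8.04 and 7.92 in mutant NaCl. The groups overlapped in every pair, and the fitted differences were 0.01 ± 0.15 and 0.19 ± 0.13. The 95% confidence intervals ran from -0.33 to 0.35 and from -0.11 to 0.48, and these arrays limit the difference of Arntl no further than that. Its largest spread was in control tamoxifen, where males held both the lowest level and the middle one.

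Over the 10 genes the median difference was -0.46 against control tamoxifen and -0.52 against mutant NaCl, beside medians of -0.02 and -0.01 over all 19944 genes. In the first comparison 7 of the 10 did not overlap and were lower, as did 20.1% of all genes. In the second 7 did, as did 12.6% of all genes, with Per1 in place of Per3. Both comparisons use the same mutant tamoxifen arrays, so their values are set side by side and do not support each other. Between mutant NaCl and control tamoxifen the median of the 10 genes was 0.00, with fitted differences from -0.21 to 0.29. The upper end is Dbp, whose difference was 0.52 without mutant NaCl replicate 4. For that contrast limma called 0% of all genes at an adjusted p of 0.05. At an unadjusted p of that size it called 1625 genes, or 8.15%. The 10 genes were chosen on these groups too, so no test of them is read from this contrast.

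**Figure D2:**
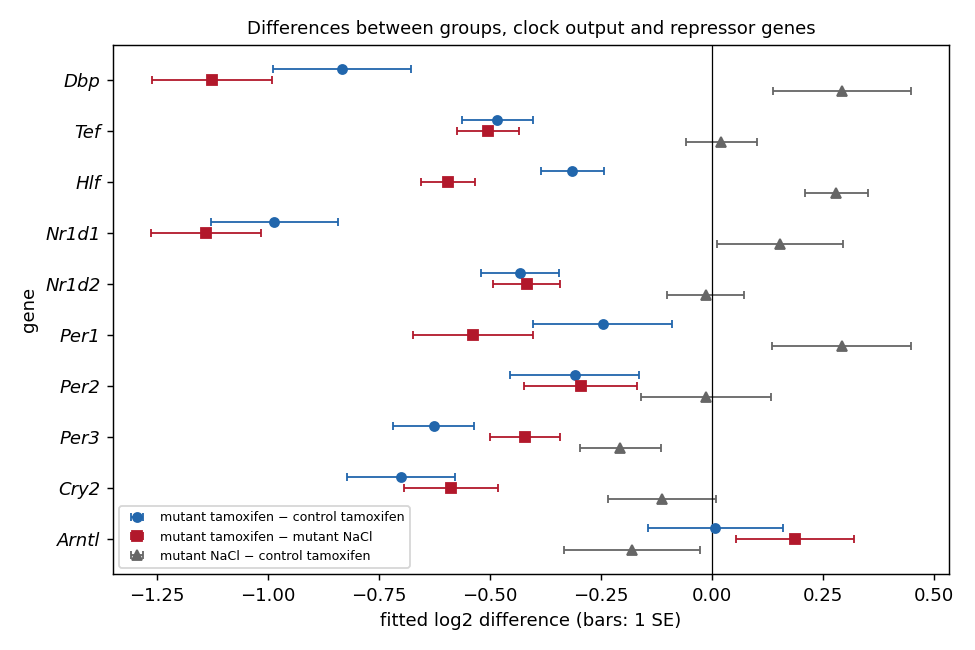
Fitted log2 difference (x axis, bars 1 SE) of each of the 10 clock genes (y axis) in the 3 group comparisons. Nr1d1 and Dbp lie farthest to the left in mutant tamoxifen against mutant NaCl, at -1.14 and -1.13, and Arntl lies at 0.01 and 0.19.

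The animals of the mutant tamoxifen group also differed among themselves. All 10 genes had a larger SD in mutant tamoxifen than in mutant NaCl, which has the same number of arrays and the same sexes, as did 47.8% of all genes. Several of the 10 vary together within groups, so they are not independent, and this count has no test. For Dbp the range within the group was 0.88 in mutant tamoxifen and 0.19 in mutant NaCl. For Per1 the ranges were 0.73 and 0.21, and for Nr1d1 0.60 and 0.31. The ranges were close for Tef, 0.25 and 0.24, Hlf, 0.33 and 0.29, and Per3, 0.43 and 0.37. Control tamoxifen had the largest SD of the 3 groups for Hlf, Nr1d2 and Arntl. Replicate 3, the male, was the highest of the mutant tamoxifen group for 6 genes. Replicate 2 was the lowest for 5, namely Hlf, Per1, Per2, Per3 and Cry2, and replicate 4 for another 4, Dbp, Tef, Nr1d1 and Nr1d2. The lowest array was thus not the same for all genes, and for Tef replicates 4 and 2 were nearly equal, at 9.200 and 9.203. Genes that shared a lowest array did not all share an order, as Nr1d1 was highest in replicate 2 and Dbp in replicate 3. Arntl was at its highest, 8.45, in replicate 4. In control tamoxifen, replicate 2, the female, was the lowest for 8 of the 10.

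**Figure D3:**
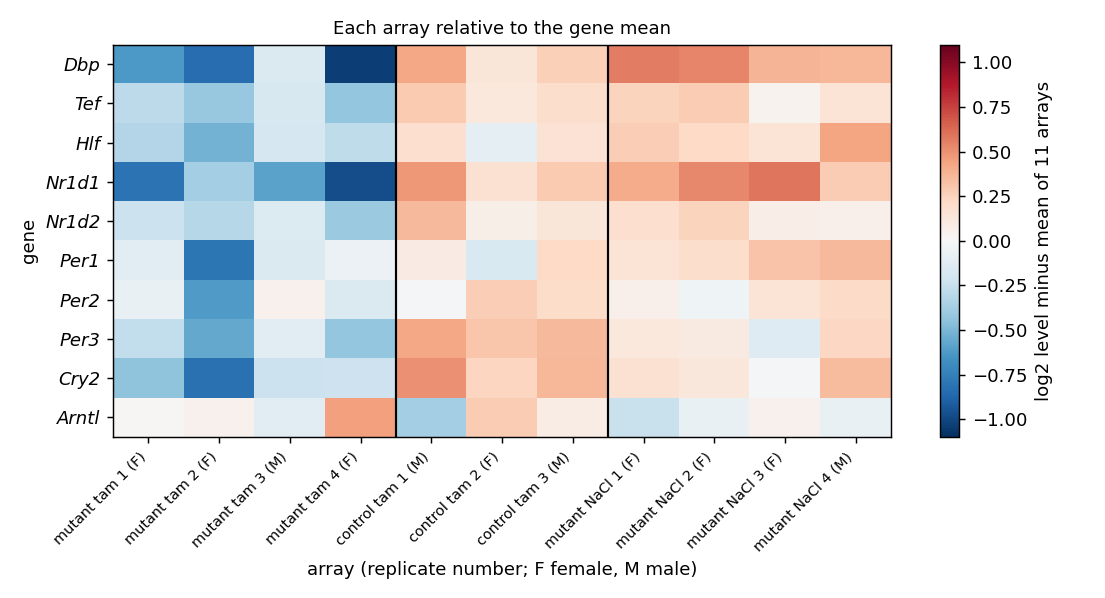
Log2 level of each clock gene (y axis) on each array (x axis) minus that gene's mean over the 11 arrays, blue below and red above. The 4 mutant tamoxifen columns are blue for Dbp to Nr1d1, the second is darkest for Per1, Per2, Per3 and Cry2, and Arntl is reddest in the fourth, at 8.45.

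Sex was the comparison that the choice of genes did not use. Of the 10, 9 had higher levels in males than in females in the fit that allows for group, and Arntl was lower in males, by 0.23 ± 0.13 in size. Over all genes 54.6% were higher in males. Because several of the 10 vary together within groups, their signs are not independent and the count itself was not tested. For Nr1d1 and Per2 the sign changed when single arrays were left out. In the same fit all 7 markers of stratified squamous epithelium were lower in males, with a median of -1.70, and all 10 of smooth muscle were higher, with a median of 0.07. None of these markers was called for sex, and their part in the fitted sex differences of the clock genes was not tested. None of the 10 passed the threshold (limma, adjusted p of 0.05 over all genes), beside 0.0351% of all genes, and 3 had an unadjusted p under 0.05, beside 6.06% of all genes. Hlf had the smallest, with levels 0.22 ± 0.06 higher in males and an adjusted p of 0.487. For Dbp the difference was 0.26 ± 0.13 (adjusted p = 0.845), and it ran from 0.03 without mutant tamoxifen replicate 3 to 0.46 without mutant NaCl replicate 4, both males. Cry2 had 0.24 ± 0.10 (adjusted p = 0.792) and Per3 0.20 ± 0.08 (adjusted p = 0.732). With 4 males among 11 arrays the interval stayed wide, and that of Dbp ran from -0.03 to 0.54 at 95% confidence.

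Other genes of the clock loop were taken by their known role, and 9 were analysed here. This list and the gene lists that follow were chosen with earlier results of these data known. The adjusted p-values of their genes therefore cannot be taken as free of that choice. Against control tamoxifen, 2 of the 9 rose and 2 fell, beside 12.9% and 11.8% of all genes, with a median of 0.12 beside -0.02. Against mutant NaCl, 3 rose and 3 fell, beside 12.5% and 10.7%, with a median of 0.04 beside -0.01. No list is tested as a list here.

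Ciart, a circadian repressor also called CHRONO that acts on BMAL1, fell most. It read 8.77, 8.73, 9.26 and 8.79 in mutant tamoxifen, 9.60, 9.76 and 9.95 in control tamoxifen, and 10.27, 10.28, 9.91 and 10.32 in mutant NaCl. The groups were separate for mutant tamoxifen, with fitted differences of -0.78 ± 0.13 (adjusted p = 0.00209) and -1.31 ± 0.11 (adjusted p = 5.4e-05). Its mutant NaCl arrays lay 0.52 ± 0.13 above control tamoxifen, a difference that did not pass (adjusted p = 0.51). Nfil3, which binds D-boxes as a repressor, rose. It read 7.62, 7.25, 7.49 and 7.75 in mutant tamoxifen, 6.73, 6.96 and 7.18 in control tamoxifen, and 6.91, 6.74, 6.92 and 6.69 in mutant NaCl. The differences were 0.54 ± 0.14 (adjusted p = 0.0163) and 0.71 ± 0.12 (adjusted p = 0.002).

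Bhlhe41, the repressor DEC2 that competes for E-boxes, fell by 0.36 and 0.56 (adjusted p = 0.0333 and 0.00217). Cry1, the other cryptochrome, had its highest group mean where Cry2 had its lowest. It read 8.35, 8.18, 8.55 and 8.61 in mutant tamoxifen, 7.88, 8.27 and 8.31 in control tamoxifen, and 8.09, 8.01, 7.93 and 8.09 in mutant NaCl, and it rose against mutant NaCl by 0.39 ± 0.11 (adjusted p = 0.0308). Against control tamoxifen Cry1 differed by 0.28 ± 0.13 (adjusted p = 0.145). Of the receptors that activate through ROREs, Rora fell by 0.32 against mutant NaCl (adjusted p = 0.019) and Rorb, at a low level of 5.70 to 6.13, rose by 0.23 (adjusted p = 0.00737). Their differences from control tamoxifen were -0.27 and 0.13, without a call (adjusted p = 0.0644 and 0.132). Arntl2, the relative of Arntl, rose by 0.21 against control tamoxifen (adjusted p = 0.0446), and its difference from mutant NaCl was 0.13 (adjusted p = 0.149). Clock itself read 10.71 to 10.90 over all 11 arrays, with differences of -0.02 in both comparisons (adjusted p = 0.872 and 0.788), and its 95% intervals stayed within -0.15 and 0.12. The calls of Arntl2, Bhlhe41 against control tamoxifen, Cry1 and Rora ended when single arrays were left out, in 8, 5, 5 and 4 of 11 cases, and that of Nfil3 against control tamoxifen ended without mutant tamoxifen replicate 3 (adjusted p = 0.0783) or control tamoxifen replicate 2 (adjusted p = 0.105).

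**Figure D4:**
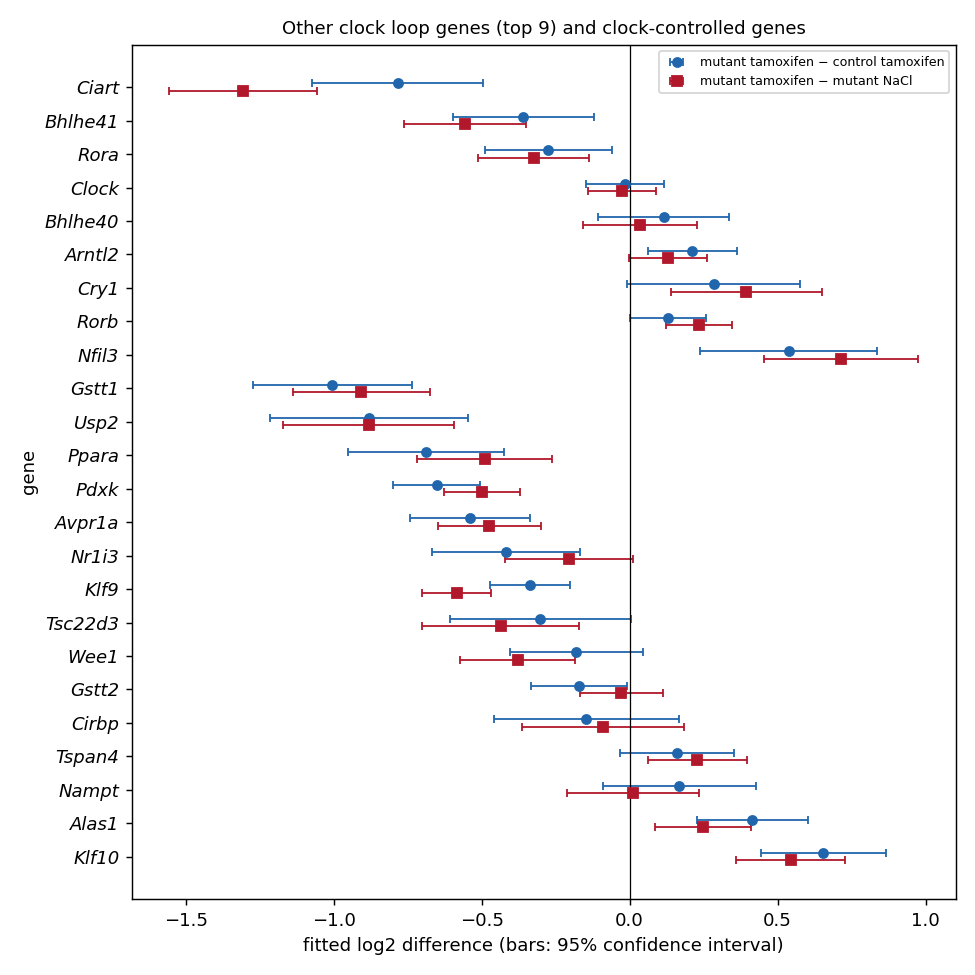
Fitted log2 difference (x axis, bars 95% confidence interval) of 9 other clock loop genes (upper rows) and of clock-controlled genes (lower rows) for mutant tamoxifen against control tamoxifen (circles) and against mutant NaCl (squares). Ciart, Usp2 and Gstt1 lie far to the left, with Ciart at -0.78 and Usp2 at -0.88 against control tamoxifen, and Nfil3 and Klf10 to the right, at 0.54 and 0.66; Elovl3, whose interval would stretch the axis, is not drawn.

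Known clock-controlled genes, rhythmic in many tissues or targets of DBP, TEF and HLF, numbered 17 here. Against control tamoxifen 7 fell and 2 rose, and against mutant NaCl 8 fell and 2 rose, beside the shares of all genes above. The medians were -0.18 and -0.20. Usp2, a deubiquitinase, read 9.24, 8.73, 9.25 and 8.93 in mutant tamoxifen, 9.74, 10.04 and 10.03 in control tamoxifen, and 10.14, 9.87, 9.72 and 9.94 in mutant NaCl. It fell by 0.88 in both comparisons (adjusted p = 0.00247 and 0.00114), and replicate 2 was its lowest array, as for Per1. Gstt1, a glutathione transferase, read 9.63, 9.06, 9.35 and 9.24 in mutant tamoxifen against 10.30, 10.33 and 10.36 in control tamoxifen and 10.17, 10.36, 10.12 and 10.25 in mutant NaCl. It fell by 1.00 and 0.91 (adjusted p = 0.000476 and 0.000298).

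Pdxk, pyridoxal kinase and a known target of the D-box factors, fell by 0.65 and 0.50 (adjusted p = 0.000201 and 0.000298). Ppara, a nuclear receptor of fatty acid metabolism that these factors are also known to drive, fell by 0.69 and 0.49 (adjusted p = 0.00259 and 0.00685). Avpr1a, a vasopressin receptor, fell by 0.54 and 0.47 (adjusted p = 0.00234 and 0.00216). Klf9, which glucocorticoids also induce, fell by 0.34 and 0.58 (adjusted p = 0.00338 and 7.6e-05). Nr1i3, the xenobiotic receptor CAR, fell against control tamoxifen by 0.42 (adjusted p = 0.0215), and its difference from mutant NaCl was -0.20 (adjusted p = 0.168). Tsc22d3, the glucocorticoid-induced leucine zipper, and Wee1, a kinase that delays mitosis, fell against mutant NaCl by 0.44 and 0.38 (adjusted p = 0.0244 and 0.0111). Their differences from control tamoxifen were -0.30 and -0.18, without a call (adjusted p = 0.139 and 0.225). The genes that rose were Klf10, a zinc-finger transcription factor, by 0.66 and 0.54 (adjusted p = 0.00116 and 0.00128), and Alas1, the first enzyme of heme synthesis, by 0.41 and 0.25 (adjusted p = 0.00606 and 0.0333). Elovl3 ran from 4.91 to 8.08 over the arrays and was not called. Among the genes that fell, leaving out single arrays ended the calls of Tsc22d3 in 5 of 11 cases and of Nr1i3 without mutant tamoxifen replicate 3 or control tamoxifen replicate 2 (adjusted p = 0.134 and 0.154), and the call of Alas1 against mutant NaCl ended in 6. Against control tamoxifen the call of Alas1 ended without mutant tamoxifen replicate 3 (adjusted p = 0.0537).

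Proteins that modify clock proteins numbered 14 here. Against control tamoxifen 4 rose and 1 fell, beside 12.9% and 11.8% of all genes. Against mutant NaCl 3 rose and 2 fell, beside 12.5% and 10.7%, and the medians were 0.03 and 0.05. The sizes were small. Ppp1ca, a catalytic subunit of protein phosphatase PP1, rose by 0.29 and 0.25 (adjusted p = 0.00263 and 0.00277). Usp7, a deubiquitinase that stabilises cryptochromes, rose by 0.22 and 0.17 (adjusted p = 0.0172 and 0.0304). Sfpq, an RNA-binding protein found in PER complexes, rose by 0.19 and 0.18 (adjusted p = 0.0447 and 0.0323). Prmt5, an arginine methyltransferase, rose by 0.18 against control tamoxifen (adjusted p = 0.0165). Its difference from mutant NaCl was 0.05 (adjusted p = 0.428), and mutant NaCl lay 0.13 above control tamoxifen, without a call (adjusted p = 0.539). Btrc, an F-box protein that marks PER proteins for degradation, fell by 0.22 and 0.25 (adjusted p = 0.046 and 0.0154), and its relative Fbxw11 fell by 0.19 against mutant NaCl (adjusted p = 0.0113). The difference of Fbxw11 from control tamoxifen was -0.09 (adjusted p = 0.209). The calls of Btrc and Sfpq against control tamoxifen ended in 9 and 7 of the 11 cases in which 1 array was left out, and those of Sfpq and Usp7 against mutant NaCl in 6 and 6. Against control tamoxifen Usp7 and Prmt5 lost theirs without mutant tamoxifen replicate 3 (adjusted p = 0.0885 and 0.0799) or control tamoxifen replicate 2 (0.0555 and 0.0972), and Btrc lost its call against mutant NaCl without mutant tamoxifen replicate 3 (0.055).

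Per1 is a known target of the glucocorticoid receptor, so genes that glucocorticoids induce were read as well, and 12 were measured beside Per1 itself, which is not counted. Against control tamoxifen 5 fell and 0 rose, beside 11.8% and 12.9% of all genes, with a median of -0.32. Against mutant NaCl 5 fell and 1 rose, beside 10.7% and 12.5%, with a median of -0.17. Klf9 in both comparisons and Tsc22d3 in the second were already counted among the clock-controlled genes. Sgk1, a kinase that regulates sodium uptake in the colon, read 9.64, 9.13, 9.03 and 10.00 in mutant tamoxifen, 9.97, 10.04 and 10.21 in control tamoxifen, and 10.44, 10.55, 10.82 and 10.71 in mutant NaCl. It fell by 0.69 and 1.18 (adjusted p = 0.037 and 0.00142), and mutant NaCl lay 0.50 above control tamoxifen, without a call (adjusted p = 0.605). Pdk4, which restrains glucose oxidation, fell by 0.75 and 0.84 (adjusted p = 0.0233 and 0.00684). The metallothioneins Mt1 and Mt2 fell against control tamoxifen by 0.72 and 0.52 (adjusted p = 0.00192 and 0.0393). Against mutant NaCl they differed by only -0.11 and -0.11 (adjusted p = 0.517 and 0.627). Mutant NaCl itself differed from control tamoxifen by -0.61 and -0.40, without a call (adjusted p = 0.399 and 0.59). Against mutant NaCl the transcription factor gene Zbtb16 fell by 0.86 (adjusted p = 0.00181), and the stress-induced Ddit4 rose by 0.22 (adjusted p = 0.0462). Against control tamoxifen Zbtb16 and Ddit4 differed by -0.36 and 0.08, without a call (adjusted p = 0.13 and 0.511). For Zbtb16 mutant NaCl lay 0.50 above control tamoxifen, also without a call (adjusted p = 0.533). These genes were named after their values were seen. Against control tamoxifen the calls of Sgk1 and Mt2 ended in 6 and 7 of the 11 cases in which 1 array was left out, and that of Pdk4 without mutant tamoxifen replicate 3 or control tamoxifen replicate 1 (adjusted p = 0.114 and 0.0681). The call of Ddit4 ended in 8. Fkbp5, a chaperone gene that glucocorticoids induce, ran from 9.23 to 10.12 in mutant tamoxifen, 9.58 to 9.73 in control tamoxifen and 9.71 to 9.97 in mutant NaCl and was not called. Its differences were -0.04 and -0.23. The other genes called in neither comparison were Dusp1, Nfkbia and Errfi1. Their differences were all positive, at 0.25 and 0.19 for Dusp1, 0.17 and 0.05 for Nfkbia, and 0.26 and 0.30 for Errfi1. None of these 4 lists had a gene called in mutant NaCl against control tamoxifen.

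Many markers of other cells also differed between these groups. Over all genes 12.9% rose and 11.8% fell against control tamoxifen, and 12.5% rose and 10.7% fell against mutant NaCl. A count of 1 of 6 below lies near those shares. The 10 smooth muscle markers fell in both comparisons, 10 of 10, by a median of 0.49 and 0.45, and their mean level was 11.53 to 11.67 in mutant tamoxifen, 12.05 to 12.20 in control tamoxifen and 11.91 to 12.19 in mutant NaCl. Of 7 enteric neuron and glia markers 5 and 4 fell, with a mean level of 7.75 to 7.92 in mutant tamoxifen, 8.17 to 8.28 in control tamoxifen and 8.09 to 8.24 in mutant NaCl. Of 6 markers of absorptive colonocytes 5 fell in each comparison, and their mean level was 10.97 to 11.31, 11.90 to 12.31 and 11.76 to 12.03 in the same order of groups. All 6 neutrophil markers rose in both, with a mean level of 7.46 to 8.08 against 6.56 to 6.85 in the other groups. Of 7 markers of proliferating cells 7 and 6 rose, and their mean level was 10.51 to 10.63 in mutant tamoxifen, 9.34 to 9.93 in control tamoxifen and 9.97 to 10.20 in mutant NaCl. Of the 6 epithelial markers 1 and 3 rose, and of 6 fibroblast markers 1 rose against control tamoxifen and 4 rose and 1 fell against mutant NaCl. Markers of stratified squamous epithelium ran from 6.74 to 10.53 over all arrays, those of T and B cells from 7.32 to 9.11, and none of either was called. The part of any of these cells in the levels of the clock genes was not tested.

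Over the 11 arrays, the genes whose levels most resembled those of Dbp were Fuom, Akr1c14, Pgap2, Bhlhe41 and Abr, with Pearson r of 0.97, 0.96, 0.96, 0.96 and 0.96 among 16413 candidates. The groups differ in level, which sets much of such an r. On deviations from the group means r was 0.88 for Fuom, 0.73 for Akr1c14, 0.73 for Pgap2, 0.83 for Bhlhe41 and 0.86 for Abr. For Arntl the closest were Ceacam13, Prss58, Ddit4, Dynap and Dnmt3b, with r of 0.86, 0.86, 0.85, 0.85 and 0.84. Ceacam13 and Prss58 ran from 4.78 to 4.94 and from 4.83 to 4.93, a span too narrow to carry much. These values describe the same 11 arrays and have no test.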

How the data were processed

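Total RNA was the starting material for the 11 arrays. The log2 values were deposited by the authors after RMA in Expression Console version 1.1, per the labels and the series' design text. RMA quantile-normalises arrays, so a shift shared by most genes is removed. Of 35556 transcript clusters, 21797 had 1 symbol in the platform annotation, 1613 had several and 12146 were not listed. Of these symbols 21709 matched RefSeq (GRCm38.p6), 2 were updated and 88 kept as they were. The cluster with the highest mean stood for a gene, which gave 19944 genes. No filter was applied.

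Limma 3.58.1 (R 4.3.3) fitted all arrays together, with terms for group and sex and a variance trend. A gene counted as called when its two-sided p, adjusted by Benjamini-Hochberg over the 19944 genes, was under 0.05. The steps were tested on simulated data. Replicate numbers only name arrays, and p-values measure the spread between these mice, whose litters and batches are not given. Precision is limited by the number of arrays.

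The clock genes and all lists were chosen with earlier results of these data known. Named genes are the 10 clock genes, every loop, modifier and clock-controlled gene past the threshold, Clock, Cry1 and Nfil3, and the 5 genes most like Dbp and Arntl in level (predicted, receptor-segment, small RNA and sex-linked genes left out). The glucocorticoid-induced genes and Elovl3 are named outside this rule, after their values were seen. The E-prime box was added later than the other motifs. Alternatives covered the sex term, the arrays fitted, filters on low genes, normalization, variance moderation, probe choice and each array left out.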

Additional observations from a re-analysis of the deposited data

Results flagged for a closer look

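Within groups of 4 arrays, 70 checks over 35 clock-related genes found 7 in which 1 array stood apart from the other 3 by more than Dixon's 95% limit, and chance gives about 1 in 20. Per1 read 9.07 in mutant tamoxifen replicate 2, where the others read 9.70 to 9.80. Ciart was apart in both mutant groups, and both times the array was replicate 3 of its group, a number that only names the array. In mutant tamoxifen that array is the only male of its group, and in mutant NaCl it is a female. These checks did not allow for sex. It read 9.26 in mutant tamoxifen replicate 3 against 8.73 to 8.79, and 9.91 in mutant NaCl replicate 3 against 10.27 to 10.32. Arntl2 read 7.35 in mutant tamoxifen replicate 3, the same male, against 7.08 to 7.11. Sfpq read 11.31 in mutant tamoxifen replicate 1 against 11.43 to 11.44. In mutant NaCl replicate 2, Tsc22d3 read 9.43 against 9.62 to 9.65 and Klf10 read 9.47 against 9.76 to 9.78.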

How the results depend on the processing

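Under 21 alternatives the median difference of the 10 clock genes stayed between -0.53 and -0.42 against control tamoxifen, between -0.57 and -0.44 against mutant NaCl, and between -0.03 and 0.10 for mutant NaCl against control tamoxifen. Among the called genes of the clock, clock-controlled, modifier and glucocorticoid lists and Itga6, none changed sign; single marker genes were not followed. Counts moved more. Among females alone, where control tamoxifen keeps 1 array that is assumed to vary like the others, the count against control tamoxifen was 1385 genes (4915 otherwise), with 1 loop gene, 0 modifiers, 5 clock-controlled genes and 1 glucocorticoid-induced gene, and 1 modifier against mutant NaCl. With only the groups compared, 1 modifier and 2 glucocorticoid-induced genes passed against control tamoxifen, and 3 genes for mutant NaCl against control tamoxifen (0 otherwise). A further quantile normalization gave 3 modifiers against mutant NaCl and 1 gene between the reference groups. Leaving out the lowest 50% of genes, which tests fewer genes, gave 4 genes for sex (7 otherwise), 1 between the reference groups, and 2 and 3 loop genes. Robust moderation gave 3 glucocorticoid-induced genes against control tamoxifen. With 1 array left out, counts ran from 2517 (without mutant tamoxifen replicate 3; 3031 without control tamoxifen replicate 2) to 4685 genes against control tamoxifen, 3150 to 4924 against mutant NaCl, 0 to 3 between the reference groups and 5 to 20 for sex (20 without mutant NaCl replicate 3). Against control tamoxifen and then mutant NaCl they ran 1 to 5 and 4 to 6 for loop genes, 1 to 5 and 2 to 5 for modifiers, 7 to 10 and 8 to 11 for clock-controlled genes, and 2 to 6 and 5 to 7 for glucocorticoid-induced genes with Per1 counted (5 and 7 otherwise). Why these counts moved was not tested. No paired analysis was made, because each array is a different mouse and the labels give no link between mice of different groups. The labels give no replicate numbers, and those used here only name arrays.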
